A study of Mus musculus with 96 samples.

Results

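Gene expression was compared between the hippocampus and the prefrontal cortex of mouse offspring that had neither prenatal immune activation nor drug. The comparison used 24 of the 96 RNA-sequencing libraries of a larger study on microglia renewal after maternal immune activation. These were the 12 hippocampal libraries (6 female, 6 male) and the 12 prefrontal libraries (6 female, 6 male) labelled as saline-injected and as control for PLX5622, an inhibitor of the microglial survival receptor CSF1R. Each hippocampal library was paired with the prefrontal library of the same sex and number, so that F_01 stands for female pair 01 in both regions. Strain, age, litter, dose and the dissection borders are not given in the labels, and the labels do not say outright that a pair comes from 1 animal. The p-values below therefore measure the spread between pairs of libraries. Libraries were made from polyadenylated RNA with a stranded kit. Values are gene counts divided by a size factor, here rescaled jointly over the 24 libraries and called rescaled signal. Gene length was not used, so a level is compared between regions and never between genes. In bulk tissue, fewer cells of a type and less RNA per cell cannot be told apart.

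The hippocampus is a folded archicortex in which granule cells of the dentate gyrus contact CA3 pyramidal cells, whose axons run on to CA1. The prefrontal cortex is layered neocortex, in which upper-layer neurons connect cortical areas and deep-layer neurons project to striatum, thalamus and brainstem, and in mice it has little or no granular layer 4. Both hold the same broad classes of glia, vessels and interneurons, and excitatory neurons are known to differ most between them.

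The 24 libraries held 22784863 to 26689351 reads in hippocampus, against 23473839 to 25851673 in prefrontal cortex, with 22352 to 22589 and 22379 to 22598 genes detected. Region was the widest axis of variation, taking 42.9% of the variance on the first principal component with no overlap between regions. The second component, with 17.3%, followed the share of reads from ribosomal protein and nuclear respiratory genes. In 7 pairs (F_04, F_05, F_06, M_01, M_03, M_04 and M_05) that share was high in both regions, at 1.25 to 1.38% in hippocampus, against 1.25 to 1.36% in prefrontal cortex. In the other 5 pairs it was 0.964 to 1.10% in hippocampus, against 0.900 to 1.19% in prefrontal cortex. Pairs were divided at the largest gap in the mean share of their hippocampal and prefrontal library, over all pairs of the study. Each pair therefore has a single state by definition. The ranges of the high and the low pairs did not overlap in either region.

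**Figure D1:**
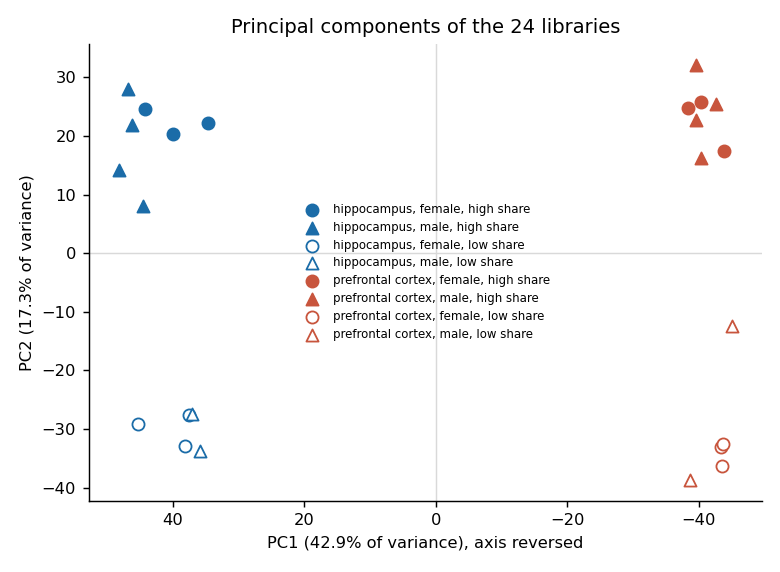
Principal components of the 24 libraries from log2 rescaled signal, with the first component on the horizontal axis, drawn from positive to negative values, and the second on the vertical axis, each axis labelled with its share of variance. Hippocampal libraries (blue) lie left and prefrontal libraries (red) right, and filled symbols (high share of ribosomal and respiratory reads) lie above open ones in both regions.

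Differences between the regions were common, and large ones were few. Of 19224 genes tested with limma, with a term for each pair, 5009 were higher and 4661 lower in hippocampus at an adjusted p under 0.05, which is 26.1% and 24.2% of the genes. These genes are referred to as called. Most calls were small: 8304 of them (85.9%) differed by less than 2-fold, and the median absolute log2 difference of all called genes was 0.35. At least 2-fold differences were called for 579 genes higher in hippocampus (3.01%) and 787 genes lower in hippocampus (4.09%), together 1366 or 7.11%. The 12 libraries of one region all lay above the 12 of the other for 790 genes higher (4.11%) and 1007 genes lower in hippocampus (5.24%), together 9.35% of the genes. Within the 7 pairs with the high ribosomal and respiratory share and the 5 with the low share, 1414 and 1331 genes were called at 2-fold or more (7.36% and 6.92%, beside 42.7% and 25.5% at an adjusted p under 0.05 alone). All 1366 genes so called over 12 pairs had the same sign in both, which choosing them over the same pairs made likely. The median log2 difference over all genes was 0.017, and list medians and counts below are to be read against it and against the shares of all genes called (26.1% higher, 24.2% lower, 7.11% at 2-fold or more).

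The same contrast was measured in the other 36 pairs of the study, whose animals had prenatal immune activation, the inhibitor or both. Of the 1366 genes called at 2-fold or more, 1365 were called there in the same direction. The exception was Cd209b, whose signal was too low there to be tested. Of all 9670 called genes, 9409 were called again in the same direction and 0 in the opposite one. The background there was wider, since 71.5% of the 20268 genes tested in those pairs were called. At 2-fold or more the share was 7.59%. The log2 differences of the 2-fold genes lay within 0.3 of each other between the 12 and the 36 pairs for 87.0% of them.

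Genes of tissues that border the dissections varied widely between libraries of 1 region. The choroid plexus, the secretory epithelium beside the hippocampus, is marked by the thyroxine carrier Ttr. Its signal was 199 to 89339 (median 4685) in hippocampus, against 7.85 to 59.6 (median 20.6) in prefrontal cortex, and hippocampal libraries M_01, F_05 and F_01 held 89339, 53678 and 40045. The summed signal of 26 choroid plexus genes was 7526 to 148041 (median 14360.3) in hippocampus, against 6676 to 7818 (median 7309.8) in prefrontal cortex, and 21 of the 25 tested were called higher in hippocampus, 17 at 2-fold or more. The other choroid genes among the largest differences were the bicarbonate transporter Slc4a5 (4.65 ± 0.47) and the prolactin receptor Prlr (4.10 ± 0.35), given as log2 difference, hippocampus minus prefrontal cortex, ± SE. Kl, the ageing-related co-receptor of fibroblast growth factor 23, which neurons also make, had a log2 difference of 3.45 ± 0.22, between 2.66 and 5.38 over the 12 pairs. Ciliated ependymal cells, which line the ventricles, showed 17 of 18 genes called higher in hippocampus and a median log2 difference of 0.97. The ciliary master factor Foxj1 was among them (1.02 ± 0.12).

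On the prefrontal side the variable tissues were striatum and olfactory bulb. The summed signal of 28 genes of striatal projection neurons was 20392 to 22459.8 (median 21445) in hippocampus, against 23791 to 87032 (median 48531) in prefrontal cortex, lowest in F_03 and highest in M_02 and M_01. Of these genes 25 were called lower in hippocampus, 21 at 2-fold or more, with a list median of -2.27. The serpin Serpina9 measured 0.954 to 13.3 (median 2.001) in hippocampus, against 28.5 to 328 (median 189.6) in prefrontal cortex. In pair F_03, the lowest in striatal signal, the log2 differences were smaller than over all pairs for Serpina9 (-3.31 against -5.46) and the adenosine receptor Adora2a (-1.42 against -3.82). The dopamine receptor Drd2, with 0.31 in F_03 against -2.41 over all pairs, changed sign there. A set of 5 olfactory bulb genes picked after their values were seen (Th, Eomes, Tbx21, Doc2g and Cdhr1) summed to 319 to 523 (median 394) in hippocampus, against 508 to 5827 (median 1858) in prefrontal cortex, highest in F_03 and lowest in M_02. Th, which makes the dopamine precursor, measured 6.20 to 26.1 (median 14.0) in hippocampus, against 74.6 to 1011 (median 288) in prefrontal cortex. Eomes was higher in hippocampus in pairs M_01 and M_02 (log2 1.27 and 1.58) and lower in each of the others (-3.22 ± 0.60 over all). In prefrontal cortex, M_01 and M_02 were the highest in striatal genes. They were also the lowest in the olfactory bulb sum (569 and 508), which includes Eomes. How far bordering tissue enters any one difference below was not tested.

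**Figure D2:**
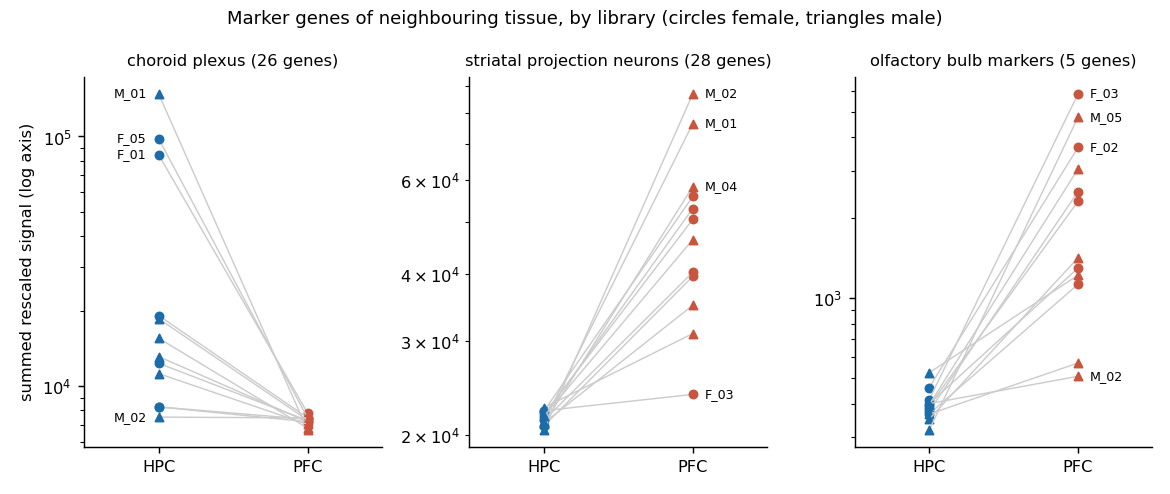
Summed rescaled signal (log axis) of marker genes for choroid plexus, striatal projection neurons and olfactory bulb in each library, hippocampus left and prefrontal cortex right, with lines joining pairs and the 3 highest and the lowest libraries named. Choroid signal spreads in hippocampus, with M_01 highest, and striatal and olfactory signal spreads in prefrontal cortex.

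Leaving out the 6 pairs highest in any of these markers, a choice made after seeing the data, gave similar counts. With the other 6 pairs, 3957 genes were called higher and 3882 lower in hippocampus, 559 and 861 of them at 2-fold or more. Among the neuronal lists below, the medians without these pairs were 0.51 for dentate granule cells, 0.83 for CA1, -0.91 for cortical layer 2/3 and -1.49 for layer 6. The 6 pairs kept were not free of these markers. Their prefrontal sums were 30938 (M_03) to 58346.5 (M_04) for striatal genes and 1124 (F_06) to 3669 (F_02) for olfactory bulb genes. The pairs left out included F_03, lowest in striatal genes, and M_02, lowest in olfactory bulb genes. This choice therefore does not separate the regions from bordering tissue.

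Transcription factors of neuronal identity differed in both directions. Prox1, the homeobox factor that specifies granule cells, measured 2123 to 4768 (median 3072) in hippocampus, against 243 to 383 (median 292) in prefrontal cortex, a log2 difference of 3.35 ± 0.054 (adjusted p = 1.29e-18). Mef2c, an activity-regulated factor of cortical neurons that shapes synapse number, measured 2727 to 4207 (median 3337) in hippocampus, against 13815 to 23111 (median 16022) in prefrontal cortex, a log2 difference of -2.34 ± 0.034 (adjusted p = 2.75e-19). The lowest hippocampal library for Prox1 lay above every prefrontal one, and the lowest prefrontal library for Mef2c lay above every hippocampal one. Their RefSeq promoter windows (build GRCm38.p6, from 250 bases before to 50 after a transcription start) are shown because these are the named transcription factors with the smallest p in each direction. Capitals mark the letters CAGATG, an E-box to which factors of the NeuroD family are known to bind, searched on both strands.
Prox1, chr1:190170778-190171077, minus strand: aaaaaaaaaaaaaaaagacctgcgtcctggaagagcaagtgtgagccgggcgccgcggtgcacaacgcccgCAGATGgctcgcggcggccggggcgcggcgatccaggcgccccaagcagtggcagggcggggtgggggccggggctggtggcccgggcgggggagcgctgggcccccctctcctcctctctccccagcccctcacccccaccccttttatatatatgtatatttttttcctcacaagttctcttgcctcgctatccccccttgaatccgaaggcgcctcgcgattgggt
Mef2c, chr13:83573357-83573656, plus strand: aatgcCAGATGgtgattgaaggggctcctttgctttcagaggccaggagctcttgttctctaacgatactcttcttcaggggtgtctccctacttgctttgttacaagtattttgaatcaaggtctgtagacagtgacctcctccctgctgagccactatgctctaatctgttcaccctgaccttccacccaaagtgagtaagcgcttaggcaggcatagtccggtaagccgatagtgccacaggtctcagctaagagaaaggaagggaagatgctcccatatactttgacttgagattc
The E-box occurs in 17.2% of all windows of this length. The window shown is the first listed one that holds a match, 1 of 2 windows for Prox1 and 1 of 3 for Mef2c. Having a match was thus fixed by this choice, and the share per window is no background for it. Each window shown carries 1 match, and the genes differ in opposite directions.

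Of 58 regional transcription factors, 26 were called higher and 25 lower in hippocampus, and the median was 0.021. On the hippocampal side stood Zbtb20, a zinc finger repressor required for CA1 identity, with 5943 to 15035 (median 9945) in hippocampus, against 1994 to 5502 (median 2286) in prefrontal cortex. The nuclear receptor Nr2f2 (1.88 ± 0.080) and the basic helix-loop-helix factors Neurod6 (1.37 ± 0.055), Bhlhe22 (1.24 ± 0.060), Neurod1 (1.18 ± 0.056) and Neurod2 (0.97 ± 0.061) were higher in hippocampus too, each without overlap between regions. The LIM-homeobox gene Lhx9 measured 533 to 745 (median 651) in hippocampus, against 2.82 to 18.6 (median 8.64) in prefrontal cortex. It is also a thalamic gene, and of the 19 thalamic and habenular genes tested, 7 were called higher and 7 lower, with a median of -0.056. St18, a zinc finger factor of the Myt1 family, had a log2 difference of 2.92 ± 0.061.

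On the prefrontal side stood Tbr1, the T-box factor of deep-layer corticothalamic neurons, with 923 to 1358 (median 1100.0) in hippocampus, against 3389 to 3910.3 (median 3581) in prefrontal cortex, a log2 difference of -1.71 ± 0.031. Foxp2 (-3.67 ± 0.12), Meis2 (-2.25 ± 0.069), Pbx3 (-2.06 ± 0.16) and Cux2 (-1.90 ± 0.072) were lower in hippocampus without overlap. Foxp2 and Meis2 are made by striatal neurons as well, and in pair F_03 their log2 differences were -3.70 and -2.47. F_03 was also the highest in olfactory bulb genes, and Pbx3 was -2.89 there. In M_02, lowest in olfactory bulb and highest in striatal genes, Foxp2, Meis2 and Pbx3 were -3.33, -1.97 and -1.37. The part of bordering tissue in these differences was not tested. Fezf2 and Bcl11b, which specify subcortically projecting neurons of layer 5, went the other way at 0.39 ± 0.068 and 0.47 ± 0.047. Emx2 and Emx1, paired dorsal forebrain factors, were 0.56 ± 0.051 and -0.54 ± 0.10.

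**Figure D3:**
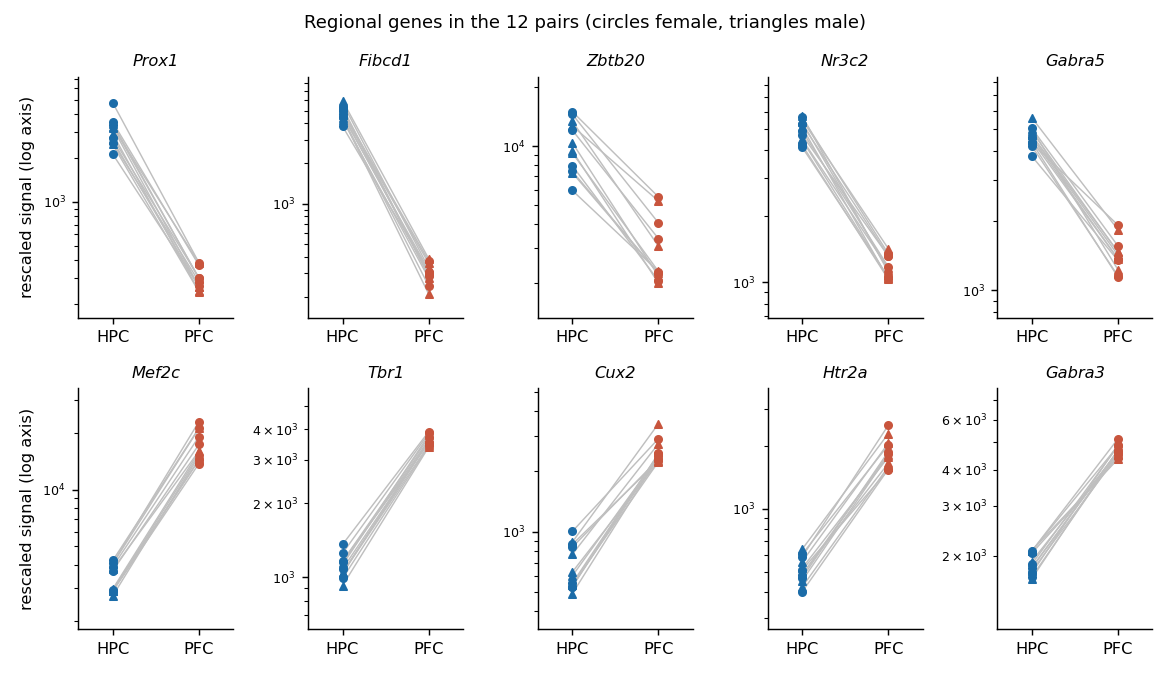
Rescaled signal (log axis) of 10 genes in each library, hippocampus left and prefrontal cortex right, with a line joining each pair. The 12 lines of a gene slope the same way, with no overlap between regions, down to the right for the 5 genes of the top row and up for the 5 of the bottom row.

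Markers of the hippocampal subfields were higher in hippocampus for the most part, with exceptions in every list. Among dentate granule cell genes, 12 of 22 were called higher and 6 lower in hippocampus, 9 and 2 of them at 2-fold or more, and the median log2 difference was 0.51. Desmoplakin (Dsp), a junctional protein known as a granule cell marker, measured 917 to 2686 (median 1709.9) in hippocampus, against 0 to 27.5 (median 10.7) in prefrontal cortex. C1ql2, a secreted synaptic organiser of mossy fibres, measured 879.9 to 2182 (median 1449.6) in hippocampus, against 6.13 to 20.6 (median 10.4) in prefrontal cortex. Lactase (Lct) measured 1047 to 1585 (median 1239) in hippocampus, against 49.9 to 97.1 (median 64.4) in prefrontal cortex, and the cytokine precursor Il16 measured 643 to 982 (median 865) in hippocampus, against 44.0 to 79.0 (median 55.3) in prefrontal cortex. For these 4 genes every prefrontal library lay far below the lowest hippocampal one. Against the list's direction, the delta subunit of the GABA-A receptor, Gabrd, was lower in hippocampus at -1.51 ± 0.073, and calbindin (Calb1), made by cortical neurons too, was not called at 0.091 ± 0.065.

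Among CA1 pyramidal cell genes, 11 of 16 were called higher and 4 lower in hippocampus, 7 and 0 of them at 2-fold or more, and the median log2 difference was 0.82. Fibcd1, a transmembrane receptor for acetylated ligands, measured 3805 to 5940.0 (median 4764) in hippocampus, against 209 to 384 (median 304) in prefrontal cortex, a log2 difference of 3.99 ± 0.057 (adjusted p = 2.29e-19). Spink8, a secreted protease inhibitor, had 3.96 ± 0.13, and Gpr161, a ciliary receptor that restrains Hedgehog signalling, measured 2078 to 3326 (median 2459) in hippocampus, against 223 to 386 (median 326) in prefrontal cortex. Wfs1 (-0.34 ± 0.085), an endoplasmic reticulum protein, and Ndst4 (-0.83 ± 0.084), a heparan sulfate enzyme, are used as CA1 markers within hippocampus and were lower here than in prefrontal cortex.

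Among CA2 genes, 11 of 13 were called higher and 2 lower in hippocampus, 4 and 2 of them at 2-fold or more, and the median log2 difference was 0.69. Amigo2, an adhesion protein that marks CA2, measured 738 to 975 (median 845) in hippocampus, against 185 to 405 (median 281) in prefrontal cortex. The neurotrophin Ntf3 was 2.52 ± 0.12 and Rgs14, which restrains plasticity in CA2, 0.69 ± 0.061. Sostdc1 (3.47 ± 0.26) belongs to the choroid list as well. Pcp4, a calmodulin-binding protein of CA2 and of cortical layer 5, was lower in hippocampus (-1.40 ± 0.068).

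Among genes of CA3 pyramidal cells and hilar mossy cells, 15 of 19 were called higher and 3 lower in hippocampus, 8 and 2 of them at 2-fold or more, and the median log2 difference was 0.64. Homer3, a postsynaptic scaffold, measured 769.7 to 1109 (median 1015) in hippocampus, against 87.3 to 129 (median 107) in prefrontal cortex. Iodotyrosine deiodinase (Iyd) measured 89.0 to 144 (median 116) in hippocampus, against 2.02 to 15.0 (median 4.62) in prefrontal cortex. The copine Cpne7 (2.64 ± 0.068), the ubiquitin ligase Rnf182 (2.37 ± 0.053) and the kainate receptor subunit Grik4 (1.30 ± 0.051) were higher without overlap. The mossy cell gene Drd2 (-2.41 ± 0.27) was lower, with the change of sign in F_03 given above. Subicular genes were divided, with 2 of 10 called higher, 4 lower and a median of -0.16.

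Cortical layer genes were lower in hippocampus except for layer 5. In the layer 2/3 list, 1 of 12 were called higher and 8 lower in hippocampus, 0 and 5 of them at 2-fold or more, and the median log2 difference was -0.88. Lamp5, a lysosome-associated protein of upper-layer and neurogliaform cells, measured 664 to 1004 (median 854) in hippocampus, against 2813 to 4333 (median 3762) in prefrontal cortex. Cux2 measured 489 to 1002 (median 614) in hippocampus, against 2239 to 3467 (median 2387) in prefrontal cortex. Otof, a membrane fusion protein (-2.20 ± 0.084), and Stard8 (-2.01 ± 0.054) were lower as well. In the layer 4 list, 2 of 9 were called higher and 7 lower in hippocampus, 1 and 4 of them at 2-fold or more, and the median log2 difference was -0.91, and its nuclear receptor Rorb was -1.10 ± 0.040. In the layer 6 and 6b list, 4 of 23 were called higher and 17 lower in hippocampus, 2 and 16 of them at 2-fold or more, and the median log2 difference was -1.43. The synaptotagmin Syt6 (-2.44 ± 0.14), the complexin Cplx3 of subplate-derived neurons (-1.77 ± 0.15) and the kappa opioid receptor Oprk1 (-2.42 ± 0.14) were among them. Oprk1 was -1.45 in F_03, lowest in striatal signal, and -3.25 and -2.50 in M_01 and M_02, the highest. Crym, a thyroid hormone binding protein, went against the list at 1.41 ± 0.078. In the layer 5 list, 10 of 19 were called higher and 6 lower in hippocampus, 2 and 5 of them at 2-fold or more, and the median log2 difference was 0.39. Its largest difference was the heparan sulfate sulfotransferase Hs3st2, with 136 to 234 (median 165) in hippocampus, against 886 to 1386 (median 1233) in prefrontal cortex. Etv1 (0.64 ± 0.075) and Parm1 (0.55 ± 0.040) were higher in hippocampus.

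**Figure D4:**
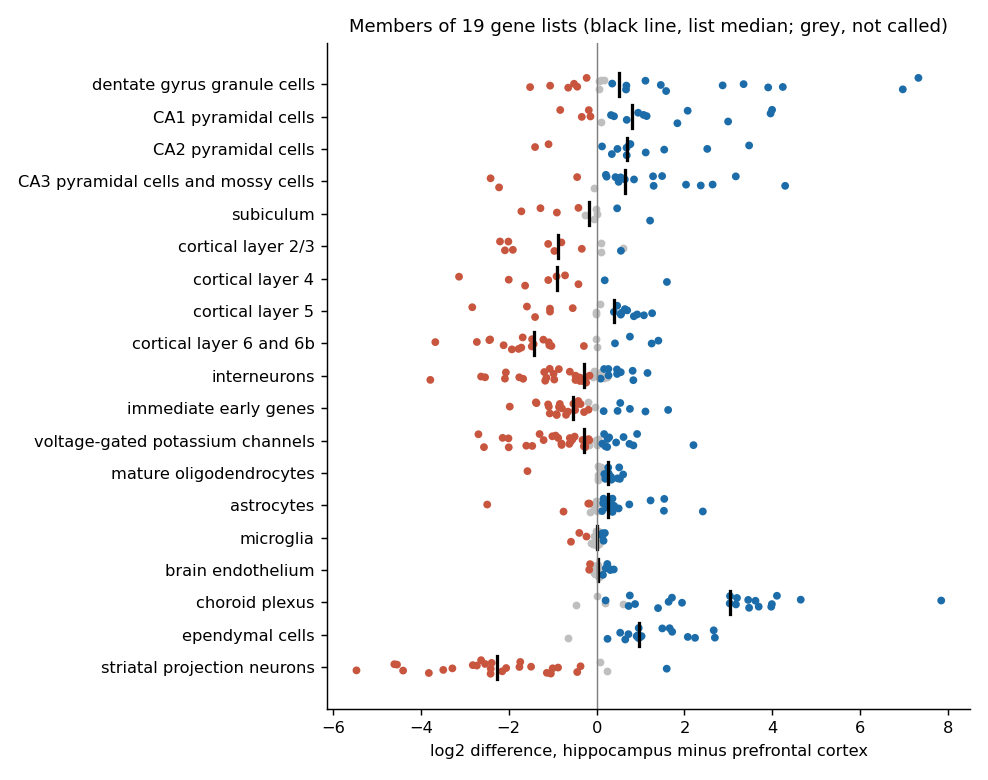
Log2 difference, hippocampus minus prefrontal cortex, of each tested member of 19 gene lists (horizontal axis), with 1 row per list, blue for genes called higher and red for genes called lower in hippocampus, grey for genes not called and a black line at the list median. Subfield lists lean right, cortical layer lists other than layer 5 lean left, and microglial and endothelial genes gather at 0.

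Further genes came from rules that took the smallest p and the largest differences in each direction. Higher in hippocampus were Cabp7, a calcium sensor of the calneuron family, with 5871 to 8176 (median 7532) in hippocampus, against 422 to 689 (median 529) in prefrontal cortex and an adjusted p of 6.83e-20, the smallest of all genes. Tanc1, a postsynaptic scaffold, measured 3415 to 5509.6 (median 4241) in hippocampus, against 542 to 1071 (median 779) in prefrontal cortex. Galnt17 (1.83 ± 0.038), a member of the glycosyltransferase family that starts mucin-type glycans, had a small SE beside its size. Among the largest differences were a keratin, Krt2, with 189.8 to 466 (median 245) in hippocampus, against 1.01 to 16.1 (median 3.70) in prefrontal cortex, the retrotransposon-derived gene Rtl3 (5.14 ± 0.26) and the sodium-proton exchanger Slc9a4 (4.39 ± 0.19). Of the 24 genes that these rules chose as higher in hippocampus, the regions overlapped only for Slc4a5.

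Lower in hippocampus were 2 exchange factors for small GTPases, Rasgef1c with 37.2 to 71.9 (median 56.0) in hippocampus, against 812 to 1105 (median 963) in prefrontal cortex, and Rasgef1b with 173 to 382 (median 239.6) in hippocampus, against 1307 to 1738 (median 1511) in prefrontal cortex. The GTPase-activating protein Arhgap32 measured 3077 to 5828 (median 3847) in hippocampus, against 10223 to 18087 (median 12530) in prefrontal cortex. Arpp19, an inhibitor of protein phosphatase 2A, measured 1922 to 2563 (median 2298) in hippocampus, against 7248 to 10858 (median 9191) in prefrontal cortex, and Tmem132d had a log2 difference of -1.98 ± 0.046. Among the largest differences was the matrix protein Abi3bp, with 31.5 to 82.8 (median 59.5) in hippocampus, against 961 to 2149 (median 1516) in prefrontal cortex. Dkkl1 (-4.46 ± 0.12), related to the Dickkopf family, Igfn1 (-4.55 ± 0.21) and the keratin Krt80 (-4.24 ± 0.22) followed. The constant regions of 2 lymphocyte receptor chains were lower in hippocampus too. Trbc2, of the T cell receptor beta chain, measured 0 to 14.2 (median 3.01) in hippocampus, against 95.2 to 213 (median 137) in prefrontal cortex. Ighg2c, of the immunoglobulin gamma heavy chain, measured 0.947 to 9.84 (median 4.74) in hippocampus, against 77.5 to 131 (median 121) in prefrontal cortex. Trac, of the T cell receptor alpha chain, differed in the opposite direction and was not called by limma (values under other observations). Trbc2 and Ighg2c have near-identical paralogs, between which the authors' counting could split reads, and how reads were assigned was not tested.

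Glutamate receptor genes differed subunit by subunit. Of 17 ionotropic subunits, 8 were called higher and 5 lower in hippocampus, with a median of 0.028. The AMPA receptor subunit Gria1 measured 27423 to 34626 (median 29939.5) in hippocampus, against 10872 to 14479.5 (median 11719.8) in prefrontal cortex. Gria2 was 0.30 ± 0.046, while Gria3 and Gria4 were lower in hippocampus at -0.51 ± 0.035 and -0.76 ± 0.048. Among NMDA receptor subunits Grin2a was 0.89 ± 0.041, Grin2b 0.26 ± 0.051 (not called without the pair term, adjusted p = 0.261) and the obligatory Grin1, which was not called, -0.092 ± 0.050. Among kainate receptor subunits Grik4 was higher (1.30 ± 0.051) and Grik3 lower (-1.46 ± 0.041). The AMPA receptor auxiliary list had 5 of 16 genes called higher, 10 lower and a median of -0.43. Shisa6, which slows AMPA receptor desensitisation, measured 3868 to 6201 (median 4731) in hippocampus, against 306 to 571 (median 362) in prefrontal cortex. Cnih2 (1.11 ± 0.046) and the TARP Cacng8 (0.86 ± 0.047), both abundant partners in hippocampus, were higher, and Cacng3 (-1.18 ± 0.049) and Gsg1l (-1.99 ± 0.088) lower. Of the metabotropic receptors 3 of 7 were called higher and 3 lower, the largest difference being Grm8 (-1.92 ± 0.093).

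GABA-A receptor subunits divided as well, with 5 of 14 called higher, 9 lower and a median of -0.31. Gabra5, the alpha subunit of extrasynaptic receptors in hippocampus, measured 3816 to 5602 (median 4649) in hippocampus, against 1139 to 1914 (median 1392) in prefrontal cortex. Gabra3 measured 1666 to 2087 (median 1845) in hippocampus, against 4365 to 5139 (median 4667) in prefrontal cortex. Gabra2 was higher in hippocampus (0.79 ± 0.049). Among beta subunits Gabrb1 was 0.59 ± 0.038 and Gabrb2 -0.46 ± 0.046. Without the pair term Gabrb2 was not called (adjusted p = 0.151).

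**Figure D5:**
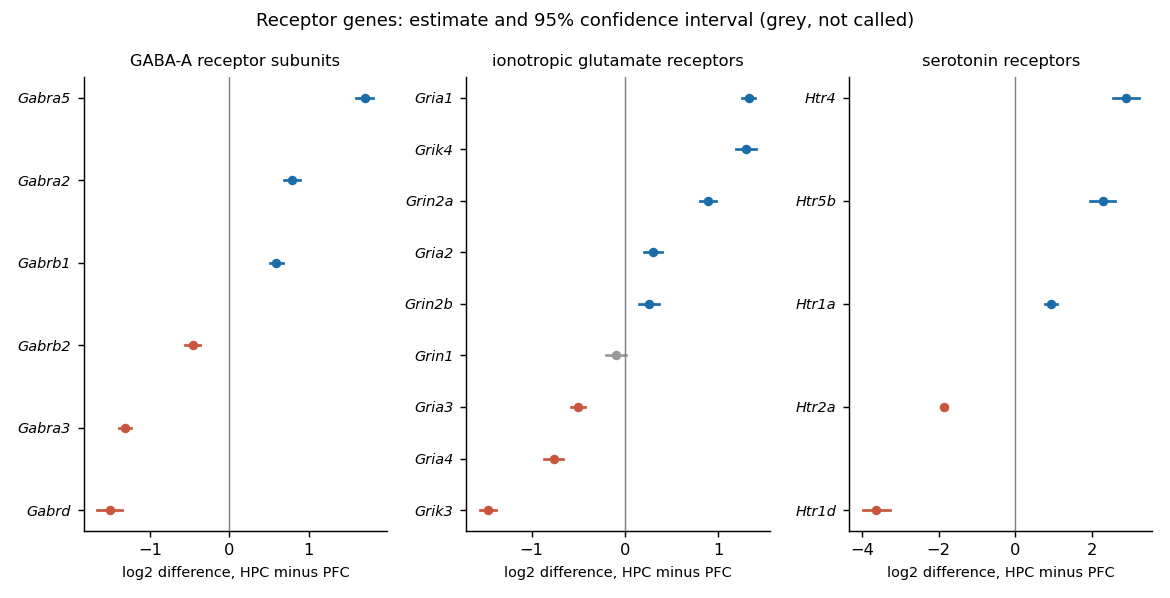
Log2 difference, hippocampus minus prefrontal cortex, with its 95% confidence interval over 12 pairs, for the GABA-A receptor subunits, ionotropic glutamate receptor subunits and serotonin receptors named in the text (blue called higher, red called lower, grey not called). Each family holds members on both sides of 0, with Gabra5 and Gabrd, Gria1 and Grik3, and Htr4 and Htr1d at the ends of their panels.

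Receptors for modulators also differed member by member. Of 12 serotonin receptors 5 were called higher in hippocampus and 6 lower. Htr2a, the main excitatory serotonin receptor of cortical pyramidal cells, measured 401 to 640.4 (median 499) in hippocampus, against 1534 to 2503 (median 1816) in prefrontal cortex. Htr4 measured 302 to 499 (median 395) in hippocampus, against 20.8 to 121 (median 50.3) in prefrontal cortex. Htr5b (2.29 ± 0.15) and the inhibitory Htr1a (0.95 ± 0.074) were higher too, and Htr1d was lower (-3.63 ± 0.17). Of 12 dopamine and adrenergic receptors 2 were called higher, Drd5 (2.25 ± 0.10) and Adra1d (1.16 ± 0.074), and 9 lower, with a median of -0.98. Drd1 was lower in all pairs, by a log2 difference of -2.72 ± 0.18 over all and -1.58 in F_03. Adra1b was -2.96 ± 0.11. Among acetylcholine receptors 5 of 13 were called higher and 4 lower. The muscarinic receptor Chrm5 (3.25 ± 0.18) and the nicotinic Chrna7 (1.06 ± 0.049) stood at one end and Chrm2 (-1.20 ± 0.13) at the other. Adora1, the adenosine receptor that damps transmitter release, was higher in hippocampus (0.67 ± 0.042), as was the cannabinoid receptor Cnr1 (0.26 ± 0.042).

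Neuropeptide genes were lower in hippocampus more often than higher, at 15 against 4 of 24, with a median of -0.64. Thyrotropin-releasing hormone (Trh) measured 2.07 to 48.6 (median 5.38) in hippocampus, against 42.2 to 474 (median 166) in prefrontal cortex, and the regions overlapped. Adcyap1 (-2.24 ± 0.13), Cartpt (-2.33 ± 0.14), Crh (-1.76 ± 0.13) and Vip (-1.17 ± 0.053) were lower without overlap. Cartpt was -1.07 in F_03, lowest in striatal signal, and -3.12 in M_02, the highest. Penk and Tac1, abundant in striatal neurons, were -2.63 ± 0.14 and -2.54 ± 0.15 over all pairs and -1.90 and -1.29 in F_03. Gastrin-releasing peptide (Grp) went the other way with 320.2 to 634 (median 419.6) in hippocampus, against 62.8 to 178 (median 114) in prefrontal cortex. Among peptide receptors 14 of 31 were called higher and 12 lower. The presynaptic neuropeptide Y receptor Npy2r measured 1692 to 2329.9 (median 1938) in hippocampus, against 107 to 204 (median 169) in prefrontal cortex. The cholecystokinin receptor Cckbr measured 124 to 251 (median 179) in hippocampus, against 1345 to 1743 (median 1479) in prefrontal cortex. The corticotropin-releasing hormone receptor Crhr1 was -1.18 ± 0.059 and the vasoactive intestinal peptide receptor Vipr2 -2.23 ± 0.39. Vipr2 was -1.79 without the 2 pairs highest in olfactory bulb genes and -2.78 without the 2 highest in striatal genes.

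Interneuron genes showed 10 of 40 called higher and 23 lower in hippocampus, beside 26.1% and 24.2% of all genes, with a median of -0.28. The classes did not move together. Somatostatin (Sst, 0.27 ± 0.091), its partner factor Lhx6 (0.27 ± 0.075) and Nos1 (0.84 ± 0.038) were higher, and parvalbumin (Pvalb, 0.11 ± 0.071) was not called. Sst was not called without the pair term (adjusted p = 0.114) or without the 2 pairs highest in olfactory bulb genes (adjusted p = 0.0878). The GABA-synthesising enzymes Gad1 and Gad2 were lower (-0.38 ± 0.062 and -0.48 ± 0.050), as were neuropeptide Y (Npy, -0.86 ± 0.063) and the homeobox factors Dlx1, Dlx2, Dlx5 and Dlx6, from -0.48 to -1.19. Striatal and olfactory bulb neurons are GABAergic as well, and the variation of their genes between prefrontal libraries is given above. In M_02, where olfactory signal was lowest and striatal signal highest, Dlx5 was -0.60, and in F_03 -1.64.

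The receptors for corticosteroids went in opposite directions. The mineralocorticoid receptor Nr3c2, the high-affinity receptor for corticosterone, measured 4149.6 to 5766 (median 5018) in hippocampus, against 1036 to 1427 (median 1149) in prefrontal cortex, a log2 difference of 2.07 ± 0.042 (adjusted p = 2.40e-17). The glucocorticoid receptor Nr3c1 measured 1978 to 2775 (median 2220.1) in hippocampus, against 2542 to 3443 (median 2966) in prefrontal cortex, a log2 difference of -0.39 ± 0.027 (adjusted p = 6.33e-10), with overlap between regions. Hsd11b1, which regenerates active corticosterone, was 1.91 ± 0.066, and Fkbp5, a co-chaperone that corticosterone induces, 0.84 ± 0.049. Esr1 (-1.09 ± 0.12) and the retinoid receptors Rxrg (-1.53 ± 0.14) and Rarb (-1.76 ± 0.13) were lower in hippocampus. Rarb, one of the striatal genes above, was -1.04 in F_03, lowest in striatal signal, and -2.64 and -2.34 in M_01 and M_02, the highest. In the whole list of 17, 6 were called higher and 8 lower.

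Voltage-gated potassium channel genes were lower in hippocampus for 25 of 42 and higher for 12, with a median of -0.28. The silent subunit Kcnf1 measured 1601 to 1975 (median 1772) in hippocampus, against 4019 to 6323 (median 5734) in prefrontal cortex. Kcnh7 (-1.46 ± 0.051), Kcnh4 (-2.69 ± 0.13) and the auxiliary subunit Dpp10 (-2.01 ± 0.054) were lower too. Its paralog Dpp6 was higher (0.61 ± 0.029), as was the silent subunit Kcng2 (2.21 ± 0.11). The pacemaker channels Hcn2 and Hcn4 were lower in hippocampus (-0.26 ± 0.069 and -2.14 ± 0.14). Of the 23 sodium and calcium channel genes 6 were called higher and 11 lower. Scn3b was 1.01 ± 0.038 and Scn4b, which striatal neurons make in quantity, -2.82 ± 0.14.

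Cell-surface guidance and adhesion genes differed by family member. Of 64 axon guidance genes 33 were called higher and 23 lower in hippocampus. The semaphorin receptor Nrp1 measured 2254 to 2887 (median 2580.1) in hippocampus, against 473 to 857 (median 628) in prefrontal cortex, and Sema3a, a ligand that Nrp1 binds, measured 55.9 to 127 (median 78.3) in hippocampus, against 539 to 973 (median 722) in prefrontal cortex. Slit1 (1.86 ± 0.040), Sema5a (1.47 ± 0.059) and Sema3e (1.46 ± 0.054) were higher, while Plxnd1, the receptor of Sema3e (-1.85 ± 0.090), and Efna5 (-1.66 ± 0.068) were lower. Of 24 cadherins and protocadherins 9 were called higher and 14 lower, with a median of -0.55. Pcdh20 measured 3741 to 5743 (median 4305) in hippocampus, against 414 to 993 (median 617) in prefrontal cortex. Pcdh10 measured 2084 to 3408 (median 2859) in hippocampus, against 5254 to 9255 (median 6825) in prefrontal cortex. Among synaptic adhesion and scaffold genes 15 of 45 were called higher and 22 lower. The synaptic organiser Cbln2 (-2.34 ± 0.14) was lower, Lrrtm1 was higher (1.06 ± 0.048) and its relative Lrrtm3 lower (-1.43 ± 0.045), and the core scaffold Dlg4 was not called (0.027 ± 0.038). Among Wnt pathway genes 9 of 45 were called higher and 18 lower. The receptor Lgr5 (-2.45 ± 0.21) and the inhibitor Sfrp1 (-1.61 ± 0.13) were lower, while the mediator Ctnnb1 was not called (0.014 ± 0.032). Lgr5 was -3.96 in F_03 and -3.38 in M_05, the highest in olfactory bulb genes, and -0.73 in M_02, the lowest.

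Kinase and second messenger genes had 17 of 55 called higher and 30 lower. The plasticity kinase subunits Camk2a and Camk2b were higher in hippocampus (0.42 ± 0.050 and 0.61 ± 0.042), and Camk2d and Camk2g lower (-1.61 ± 0.083 and -0.46 ± 0.034). Rgs4, which shortens signalling from G protein-coupled receptors, measured 3523 to 4882 (median 3937) in hippocampus, against 9311 to 11833 (median 10388) in prefrontal cortex. The diacylglycerol kinase Dgkg was higher (1.67 ± 0.045), and the phospholipase Plcb4 was lower (-1.62 ± 0.068).

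Immediate early genes, which neurons switch on within minutes of activity, were lower in hippocampus for 21 of 29 and higher for 6, with a median of -0.53. Fos measured 137 to 915 (median 247) in hippocampus, against 461 to 1533 (median 781) in prefrontal cortex, a log2 difference of -1.38 ± 0.10 (adjusted p = 1.04e-09). Egr1 measured 1458 to 4339.5 (median 2313) in hippocampus, against 4150.0 to 7908 (median 5717) in prefrontal cortex. Egr2 measured 21.0 to 229.7 (median 44.2) in hippocampus, against 115 to 549.5 (median 200.0) in prefrontal cortex, a log2 difference of -1.98 ± 0.15, the largest of the list. Npas4 (-1.10 ± 0.073), Nr4a1 (-0.69 ± 0.053) and the cytoskeletal plasticity gene Arc (-0.49 ± 0.11) were lower as well, and the regions overlapped for each of these 6 genes. Nr4a3 and Jun went against the rest without overlap, at 1.63 ± 0.075 and 1.11 ± 0.059. One RefSeq promoter window of Egr2 (GRCm38.p6) is shown because Egr2 had the largest difference of these genes. Capitals mark a CArG box, the site of serum response factor, through which many immediate early genes are known to be induced.
Egr2, chr10:67537316-67537615, plus strand: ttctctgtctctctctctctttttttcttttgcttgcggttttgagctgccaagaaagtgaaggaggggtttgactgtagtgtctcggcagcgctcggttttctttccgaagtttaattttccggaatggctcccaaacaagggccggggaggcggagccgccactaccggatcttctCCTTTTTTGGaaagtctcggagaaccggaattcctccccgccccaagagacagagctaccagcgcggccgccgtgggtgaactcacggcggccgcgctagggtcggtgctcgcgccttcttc
A CArG box, searched on both strands, occurs in 1.63% of all such windows, and the match here is a description of letters and not of binding. The window shown is the first with a match among 5 listed for Egr2, so having a match was fixed by this choice.

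Genes of adult neurogenesis, which in the hippocampus goes on in the dentate gyrus, had 10 of 26 called higher and 11 lower, with a median of -0.029. Hopx, a marker of quiescent stem cells that astrocytes share, was 1.27 ± 0.053, and the proneural factor Neurog2 2.49 ± 0.20 at a low level in both regions. Doublecortin (Dcx), the microtubule protein of migrating neuroblasts, was lower in hippocampus, with 311 to 797 (median 541) in hippocampus, against 827 to 3579 (median 1392) in prefrontal cortex. Its log2 difference was -2.28 in F_03 and -2.14 in M_05, the highest in olfactory bulb genes, and -0.52 in M_02, the lowest. The proliferation marker Mki67 was not called (-0.15 ± 0.085).

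Among glial and vascular lists, differences of 2-fold or more were called for 1 of 25 oligodendrocyte, 5 of 36 astrocyte, 0 of 28 microglial, 0 of 26 endothelial, 1 of 15 mural and 3 of 23 fibroblast genes, beside 7.11% of all genes. Of 25 oligodendrocyte genes 16 were called higher and 1 lower in hippocampus, and none of those higher reached 2-fold. Myelin basic protein (Mbp) was 0.32 ± 0.065, and the protease Klk6 went against the list (-1.57 ± 0.23). Of 36 astrocyte genes 24 were called higher and 4 lower, with a median of 0.25. The intermediate filament Gfap measured 6893 to 17558 (median 9394) in hippocampus, against 2098 to 6267 (median 3366) in prefrontal cortex. Angiotensinogen (Agt) was 2.42 ± 0.11, and the BMP antagonist Chrdl1 was lower with 83.2 to 161 (median 120.3) in hippocampus, against 522 to 830.3 (median 706) in prefrontal cortex. The glutamate transporter Slc1a2, made by all astrocytes of both regions, was 0.13 ± 0.038, not called without the pair term (adjusted p = 0.478). Of 28 microglial genes 4 were called higher and 3 lower, with a median of 0.010. That is 25% called, against 50.3% of all genes. Csf1r, the target of the inhibitor used elsewhere in the study, measured 2162 to 3281 (median 2496) in hippocampus, against 2166 to 3258 (median 2481) in prefrontal cortex, a difference of -0.012 ± 0.036 that was not called (adjusted p = 0.797, 95% confidence interval -0.087 to 0.062). P2ry12 (0.010 ± 0.050) and Tmem119 (-0.065 ± 0.051) were not called either. The transcription factor Sall1 was the largest of the list (-0.58 ± 0.10), and it is made by other neural cells too. Endothelial genes had 6 of 26 called higher and 2 lower, all under 2-fold. Among mural cells the contractile genes Acta2 (1.16 ± 0.17) and Myh11 (0.76 ± 0.14) were higher in hippocampus, while the pericyte receptor Pdgfrb was not called (-0.031 ± 0.043). Decorin (Dcn), a matrix proteoglycan in the fibroblast list, measured 1161 to 2032 (median 1638) in hippocampus, against 160.2 to 515 (median 305) in prefrontal cortex, and the collagen Col1a2 was -0.62 ± 0.19. Cytosolic ribosomal protein genes were called higher for 31 of 79 and lower for 0, none at 2-fold, with a median of 0.12.

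Perineuronal net genes, which build the matrix around parvalbumin cells, had 9 of 19 called higher and 4 lower. The link protein Hapln1 was 0.50 ± 0.069 and neurocan (Ncan) -0.35 ± 0.032. Aggrecan (Acan), the main net proteoglycan, was 0.26 ± 0.10 with an adjusted p of 0.0457, and its call was lost when any of 8 single pairs was left out (adjusted p up to 0.109). The call was also lost without the pair term (adjusted p = 0.0762), by edgeR's quasi-likelihood test (adjusted p = 0.0617), in each sex alone and without the 6 pairs highest in bordering-tissue markers (adjusted p = 0.458).

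Every difference called at 2-fold or more had the same direction in females and males, but the genes were chosen over these same pairs. Agreement in sign was therefore largely fixed in advance. All 1366 genes called at 2-fold or more had the same sign in the 6 female and the 6 male pairs, and 1323 were called in each sex alone. Females gave 1362 such genes and males 1444, 7.08% and 7.51% of the genes. By the adjusted p alone, 38.4% of genes were called in females and 34.9% in males. The region by sex term was called for 0 genes by limma (968 at an unadjusted p under 0.05, 5.04% of the genes) and for 0 by edgeR's quasi-likelihood test (931 at an unadjusted p under 0.05). A p that misses the threshold does not show that the sexes are alike, and 6 pairs per sex limit what the term can find. Prox1 was 3.28 in females and 3.41 in males, and Mef2c -2.32 and -2.35.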

How the data were processed

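The authors deposited 1 table of normalised signal for 22709 genes in all 96 libraries. Its values are counts divided by 1 factor per library, set within each region. Per the submitters' processing notes, reads were trimmed with Trimmomatic and aligned with STAR 2.6.1d to GRCm39 (mm39). The counter, the annotation and the normalising tool are not given in the sources used here. Low values are whole multiples of 1 step per library, so whole reads were recovered in 21 of the 24 columns used (100% of values whole within 0.01), and in the other 3 the factor is close to 1. No column lacked a sample. No 2 columns were identical, and the highest correlation between libraries was 0.993.

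Values were rescaled jointly over the 24 libraries by median ratios. The low-value filter, a signal of 10 or more in 6 or more libraries, kept 19224 genes. limma 3.58.1 (R 4.3.3) was fitted to log2(signal + 1) with a term for each pair and a variance trend, and p-values were adjusted by Benjamini and Hochberg. A fold change on this scale understates the change of low genes. Calls used an adjusted p under 0.05, and a second rule also a 2-fold difference. Pairs came from the sex and number in the labels. The deviations of the members of a pair from their group means correlated at 0.186 to 0.590, over 0.1 in all 12 pairs, and in 8 of 12 pairs the correlation was highest with the same number. In simulated data with 19224 genes, 50 genes were changed at each size and direction, with the same dispersion for all genes. All genes changed by 1 on the log2 scale were recovered (100% in each direction). For a change of 0.5, 76% of those lowered and 86% of those raised were recovered, and 14 calls were false. In the data far more genes were called and the spread between libraries differed by gene. These rates are therefore not the error rates of the comparison. Counts recovered from the deposited values were tested with edgeR 4.0.16 and DESeq2 1.42.0 as alternatives. Other scalings, pseudocounts, filters and sets of pairs were also tried.

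Named genes were those with the 12 smallest p and the 12 largest differences in each direction among the 722 genes called at 2-fold or more with a mean signal of at least 100 in the higher region. Of these 722, 45 predicted genes were counted and not named, and the rule named 47 genes. Some of these and other genes are not reported here. Members and the 46 gene lists were chosen with earlier results of these data known. RefSeq promoter windows are on GRCm38.p6, not the authors' build. Of the genes tested, 12791 (66.5%) matched a window by symbol, under 80%, so motif shares of gene sets were not compared.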

Additional observations from a re-analysis of the deposited data

Results flagged for a closer look

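For the 47 genes named by the rule, each group of 6 libraries of 1 region and sex was searched for a library far from the nearest of the others. In 188 such groups, 16 values stood apart. The cutoff flags about 1 in 20 groups of independent, normally distributed values. Here the groups share libraries and the signal was not log-transformed, so that rate is no measure for these 16.

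Choroid plexus genes stood apart in 1 hippocampal library. In male M_01, Ttr had 89339 against 199 to 8895 in the other 5 male hippocampal libraries, Slc4a5 606 against 5.30 to 67.0, and Prlr 985 against 138 to 185. In prefrontal cortex, Prlr had 35.8 in female F_02 against 8.52 to 15.1.

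In prefrontal library M_06, the receptor Nr3c2 was high (1427 against 1037 to 1160), as was Mef2c (21259 against 14539 to 16087), while Lamp5 was low (2891 against 3727 to 4155). Each value still lay on its own region's side of every library of the other region.

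Hippocampal library F_01 was low for Cabp7 (5871 against 7143 to 7829) and Homer3 (832 against 1007 to 1109), and high for Trh (48.6 against 2.07 to 11.5). Hippocampal library F_06 was high for Iyd (137 against 89.0 to 107), Serpina9 (13.3 against 0.954 to 2.97) and Trbc2 (14.2 against 1.03 to 5.80). In prefrontal cortex, Trbc2 was high in F_04 (213 against 104 to 140.3), Slc9a4 in F_03 (84.4 against 18.3 to 39.9) and C1ql2 in M_01 (20.6 against 8.66 to 12.7).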

How the results depend on the processing

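Of 9670 genes called and 1366 called at 2-fold or more, counts moved by over 1.5 times in 2 settings. With a mean signal of at least 50, 777 genes were called at 2-fold or more (318 higher, 459 lower), since fewer genes, 14460, were tested. In the 5 pairs with the low ribosomal and respiratory share, 4898 genes were called (2242 higher, 2656 lower), from fewer pairs. Leaving out 1 pair at a time gave 9161 to 9750 calls, 1351 to 1391 of at least 2-fold, and 0 to 0 for the region by sex term. Without the pair block 7178 genes were called (3553 higher, 3625 lower), 1363 at 2-fold or more, and the region by sex term was called for 0. In the other 36 pairs, 14497 genes were called with the block and 13001 without it. On recovered reads edgeR called 9667 genes and DESeq2 9090. TMM scaling gave 9648 calls, the deposited values as they stand 9722 and scaling to the total 9668, and these moved the median of all genes to between 0.0126 and 0.0229. Pseudocounts of 0.5 and 5 gave 9662 and 9694 calls, and no filter 9956. The 6 pairs of each sex gave 7378 calls in females and 6702 in males.

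None of the 217 tested genes named in the text changed direction while called. Of 157 called at 2-fold or more, 3 lost the call in some setting (Cd209b, Eomes and Klk6), as did 14 of 46 with smaller differences. Of 14 not called, 5 were called in some setting (Calb1, Grin1, Lck, Mki67 and Trac). Over 46 lists and 30 settings, 4 of 1380 medians moved by more than 1 SD over pairs, and the medians of 13 lists, none larger than 0.21, changed sign somewhere. That SD is of the medians of single pairs, and leaving out 1 pair could hardly move a median so far. The low count was therefore largely fixed in advance and is no measure of stability. Gene length, strain, age and dissection could not be used as terms, and depth limits genes under the filter, which were not tested.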

Other observations

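Genes of lymphocytes were looked at after the values of Trbc2 and Ighg2c had been seen, and are given as values. Cd4, a co-receptor of helper T cells that some myeloid cells also make, measured 4.96 to 12.7 (median 8.32) in hippocampus, against 18.6 to 277 (median 111) in prefrontal cortex, a log2 difference of -3.42 ± 0.23, and the regions did not overlap. In prefrontal cortex Cd4 was lowest in F_03 (18.6) and M_03 (40.8) and highest in M_01 (277) and M_02 (261), the same libraries that were lowest and highest in the summed striatal genes (23791, 30938, 76578 and 87032). Its log2 difference was -1.31 in F_03 and -4.73 in M_01, and the part of striatal tissue in it was not tested. Ighm, the constant region of the immunoglobulin mu chain, measured 142 to 410.1 (median 232) in hippocampus, against 442 to 1027 (median 694) in prefrontal cortex, a log2 difference of -1.57 ± 0.10. Not called among other leukocyte genes were Ptprc, the common leukocyte antigen (0.027 ± 0.11, adjusted p = 0.856), Trac, of the T cell receptor alpha chain (0.44 ± 0.18, adjusted p = 0.0538), the T cell kinase Lck (0.21 ± 0.11, adjusted p = 0.117) and the joining chain Jchain (-0.18 ± 0.17, adjusted p = 0.402) by limma. Trac was called by edgeR's quasi-likelihood test on recovered reads (0.50, adjusted p = 0.0339), with a pseudocount of 5 (adjusted p = 0.0452), in males, and without any 1 of the pairs F_03, F_06 and M_06 (adjusted p = 0.015 to 0.0413), and Lck without M_01 (adjusted p = 0.0482). Igkc, of the kappa light chain, and the B cell receptor subunits Cd79a and Cd79b were too low to be tested, with highest values of 11.5, 9.67 and 8.08 over the 24 libraries.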
